A study of Mus musculus with 6 samples.

Results

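The mitochondrial genome genes were taken as every gene whose chromosome is given as MT in the deposited count tables, which selected 37 of 46078 genes. They are 13 messenger, 2 ribosomal and 22 transfer RNA genes, and each has the same coordinates in GENCODE M21 (mouse GRCm38, the mm10 sequence). The counts come from RNA sequencing of small intestinal adenomas of 18-week-old mice of the strain C57BL6/SV129. The 3 knockout mice were miR-34a/b/c-/-;ApcMin/+ and the 3 wild-type mice were miR-34a/b/c+/+;ApcMin/+. All 6 mice thus carry ApcMin, a germline mutation under which adenomas arise after loss of the normal Apc copy. The groups differ in the p53-induced microRNAs of the miR-34 family. For each library, 3 tumors of 1 mouse were pooled, so the mouse is the replicate and differences between tumors of a mouse are not seen. In such bulk RNA, fewer cells of a type and less RNA per cell cannot be told apart.

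Mitochondrial DNA is a small circle present in many copies per cell. Both of its strands are transcribed almost end to end into long precursors by the polymerase POLRMT with TFAM and TFB2M, and the transfer RNAs that lie between the messenger and ribosomal RNAs are cut out, which releases the RNAs on either side. The messenger RNAs encode core subunits of complexes I, III and IV of the respiratory chain and of ATP synthase, and all other subunits come from nuclear genes. In the gut, absorptive enterocytes are rich in mitochondria.

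Library totals ranged from 26375035 to 38354355 counts. Mitochondrial genes held 2.89%, 4.18% and 2.31% of the counts in knockout replicates 1, 2 and 3, against 2.98%, 4.005% and 3.08% in wild-type replicates 1, 2 and 3. The second replicate was the highest of its group in both genotypes, and the groups overlapped. The means were 3.13% ± 0.957 in knockout and 3.35% ± 0.566 in wild-type tumors (SD, n = 3 each), a log2 ratio of -0.10. The Wilson 95% interval of a single library was at most 0.00681 percentage points to either side, which covers counting error only. Messenger RNAs took 92.2% of all mitochondrial counts, ribosomal RNAs 7.18% and transfer RNAs 0.622%.

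**Figure D1:**
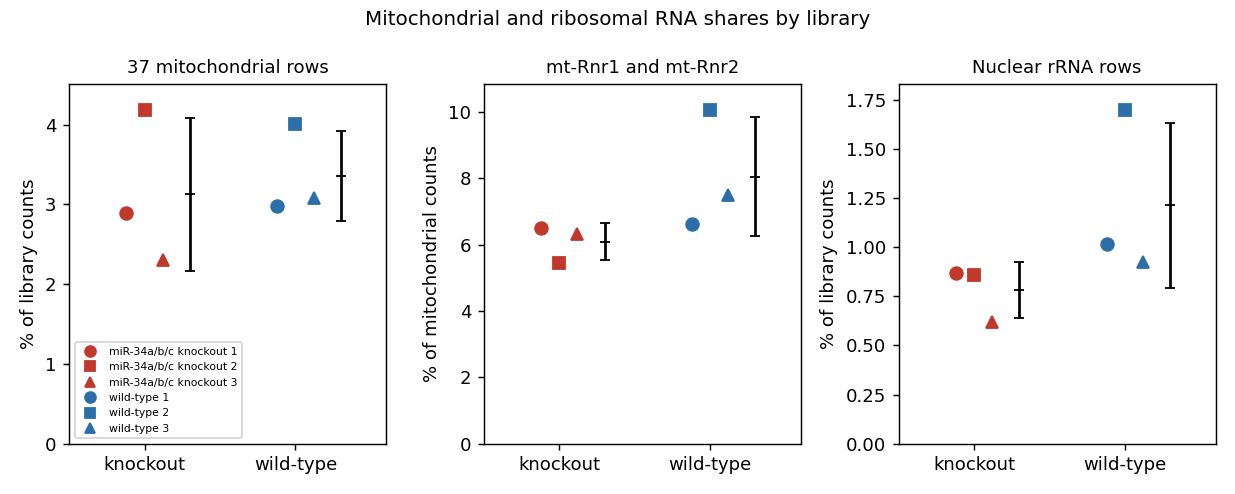
Share of the 37 mitochondrial genes in library counts (left), of mt-Rnr1 and mt-Rnr2 in mitochondrial counts (middle) and of nuclear ribosomal RNA genes in library counts (right), in percent. Each point is 1 mouse (circle, square and triangle for replicates 1, 2 and 3), and the bar beside each group is the mean ± SD. The groups overlap on the left and do not in the middle and right panels, where wild-type replicate 2 is the highest.

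Levels are given in CPM, counts divided by the TMM-scaled library size. mt-Co1, the catalytic subunit of complex IV (cytochrome c oxidase), was the most abundant, with 8055, 14681 and 6605.5 CPM in knockout libraries and 8026, 11574 and 10590.3 CPM in wild-type libraries. mt-Cytb, the cytochrome b of complex III and its single mitochondrially encoded subunit, had 5658, 9066 and 4097 CPM in the knockout and 6057, 8537 and 5915 CPM in wild-type libraries. For both genes the wild-type values lay within the knockout range, and knockout replicate 2 was the highest library of the 6 and knockout replicate 3 the lowest.

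Of the complex I (NADH dehydrogenase) subunits, mt-Nd1 had 3509, 5640.0 and 2672 CPM in the knockout and 4168, 5795 and 4011 CPM in wild-type libraries. mt-Nd5 had 2795, 5633 and 2669.7 CPM in the knockout and 3407, 4423 and 3513.5 CPM in wild-type libraries. Values of mt-Nd5 were closer together among the wild-type mice (SD 558 CPM) than among the knockout mice (SD 1676 CPM). mt-Nd2 had 1484, 2482 and 1138 CPM in the knockout and 1583, 2211 and 1601 CPM in wild-type libraries. mt-Nd4 had 1478, 2316 and 1055 CPM in the knockout and 1518, 2085 and 1612 CPM in wild-type libraries. mt-Nd6, the only messenger RNA gene on the other strand, had 907, 1366 and 655 CPM in the knockout and 995, 1293 and 1018 CPM in wild-type libraries. All of these groups overlapped.

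mt-Atp8, a small subunit of the membrane part of ATP synthase, had 1074, 1804 and 879 CPM in the knockout and 1105, 1752 and 1306 CPM in wild-type libraries. Its last 43 bases are also the first 43 of mt-Atp6, the subunit that forms the proton channel (MT:7927-7969, plus strand), and the proteins are read from it in different frames. The stretch is shown because the genes that share it differed widely in counts.
overlap of mt-Atp8 and mt-Atp6: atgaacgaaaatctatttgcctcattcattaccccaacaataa

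Knockout replicate 3 was the lowest library for 12 of the 13 messenger RNAs. Knockout replicate 2 was the highest for 9 and wild-type replicate 2 for the other 4. Shares of the messenger RNA counts by complex varied less. Complex I genes took 40.8%, 40.6% and 41.4% in knockout and 43.4%, 42.0% and 39.8% in wild-type libraries, and complex III 22.7%, 21.1% and 20.7% in knockout and 22.5%, 22.6% and 20.0% in wild-type libraries. Complex IV took 32.3%, 34.1% and 33.4% in knockout and 29.9%, 30.7% and 35.8% in wild-type libraries, and ATP synthase between 4.15% and 4.69% in each of the 6. The groups overlapped for all 4 shares. Over the 6 libraries, mt-Co1 had 1952991 counts, mt-Co2 256 and mt-Co3 526, while mt-Atp8 had 259723 and mt-Atp6 2043. The shares of complex IV and ATP synthase are thus nearly those of mt-Co1 and mt-Atp8 alone.

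A set of 5 messenger RNAs was nearly uncounted in every mouse. mt-Co2, the subunit of complex IV that takes electrons from cytochrome c, had 37, 65 and 24 counts in knockout and 37, 45 and 48 in wild-type libraries. mt-Co3, a further core subunit of complex IV, had 71, 82 and 71 counts in knockout and 80, 121 and 101 in wild-type libraries. mt-Nd4l, a small membrane subunit of complex I, had 0, 3 and 2 counts in knockout and 1, 0 and 0 in wild-type libraries. In any library a count of 0 allows up to 3 counts, at most 0.106 CPM. All 3 had at most 121 counts in libraries in which mt-Co1 had 228536 counts or more. mt-Atp6 had 194, 405 and 240 counts in knockout and 342, 498 and 364 in wild-type libraries. mt-Nd3, another small membrane subunit of complex I, had 164, 276 and 186 counts in knockout and 275, 336 and 243 in wild-type libraries. These 5 genes make up 24.5% of the messenger RNA length and held 0.0724% of the messenger RNA counts.

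Each of these 5 genes has a nearly whole and nearly identical copy among annotated nuclear pseudogenes. Mitochondrial transcripts were compared with all nuclear GENCODE M21 transcripts by blastn, counting matches of at least 100 bases. At 99% identity or more, over 90% of the length of mt-Co2, mt-Atp6, mt-Co3, mt-Nd3 and mt-Nd4l was matched, and of no other messenger RNA. The copies are the pseudogenes Gm28661, Gm10925, Gm28437, Gm28438 and Gm10222. With Gm29216 (the last 483 bases of mt-Co1) and Gm28439 (the first 876 bases of mt-Nd4), they form a block of 7 pseudogenes on the minus strand of chromosome 1 (chr1:24611535-24616197, 4663 bases). Copies of mt-Co2, mt-Atp6, mt-Co3, mt-Nd4l and mt-Nd4 were 100% identical over the matched stretch. How reads with several alignments were treated was not given in the sources used here. Counts of the 5 genes are therefore uncertain as levels, those of mt-Nd4 and mt-Co1 in part, and the part of the copies in the low counts was not tested.

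Per kilobase, the mean level over the 6 libraries was 21.7 CPM for mt-Nd3, 15.3 CPM for mt-Atp6, 3.41 CPM for mt-Co3, 1.93 CPM for mt-Co2 and 0.10 CPM for mt-Nd4l. The lowest of the other 8 messenger RNAs was mt-Nd4 with 1217 CPM per kilobase, of whose length 63.6% was matched. Divided by the 502 bases outside the match alone, mt-Nd4 came to 3342 CPM per kilobase. Genes with copies of lower identity had higher levels. mt-Co1 was matched over its whole length by Gm13340 (chromosome 2) at 97.6% identity, and mt-Nd2 over 510 bases by Gm13339 at 96.7%. mt-Co1 had a level of 6422 and mt-Nd2 of 1686 CPM per kilobase, and Gm13340 itself had 288, 635 and 362 counts in knockout and 355, 546 and 551 in wild-type libraries. For mt-Atp8 the transcript search found no match of 100 bases, which covers annotated transcripts only. The gene lies between mt-Co2 and mt-Atp6, and the sequence between their copies Gm28661 and Gm10925 is unannotated. Whether that sequence holds a copy of mt-Atp8 was not analysed here.

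**Figure D2:**
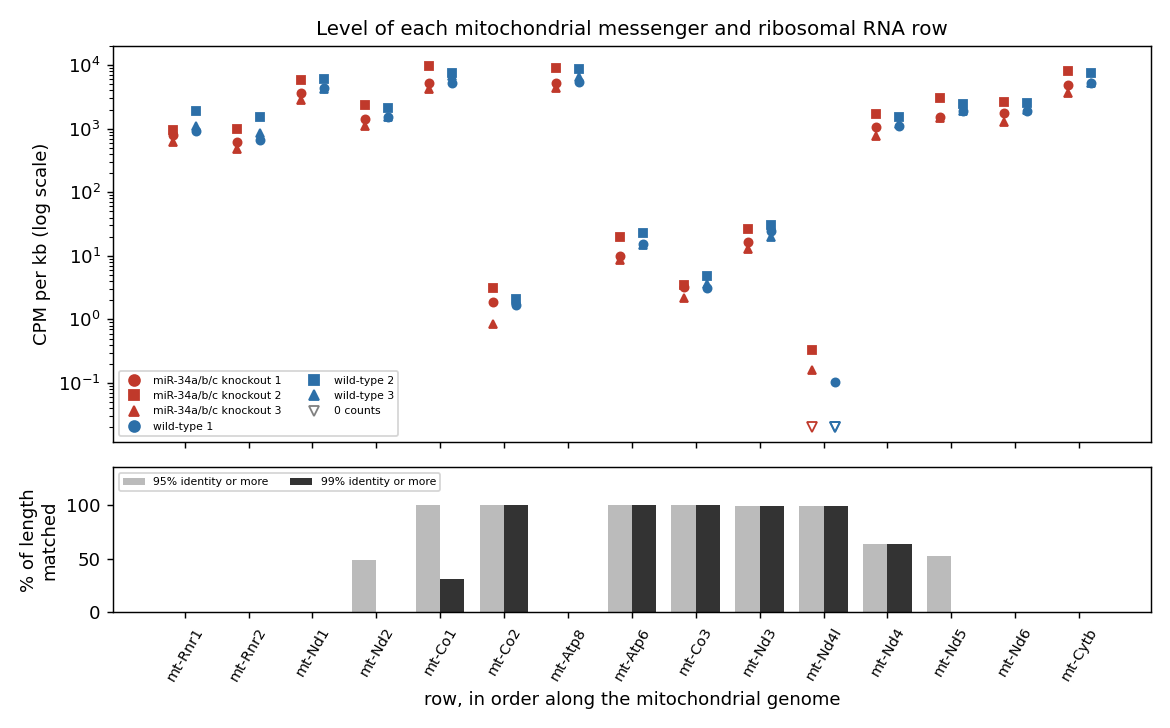
Top: CPM per kilobase of gene length (log axis) for the 13 messenger and 2 ribosomal RNA genes, in order along the mitochondrial genome. Each point is 1 mouse (knockout left in red, wild-type right in blue, open triangles for 0 counts). Bottom: percent of the gene's length matched by a nuclear transcript at 95% (grey) or 99% identity or more (black). The 5 genes matched whole at 99% lie at a mean of 21.7 CPM per kilobase or below, the other messenger RNAs at 1217 or above.

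Without the 5 wholly copied genes, the order of the mean levels per kilobase was mt-Atp8 (6472 CPM), mt-Co1 (6422 CPM), mt-Cytb (5730 CPM), mt-Nd1 (4492 CPM), mt-Nd5 (2051 CPM), mt-Nd6 (2002 CPM), mt-Nd2 (1686 CPM), mt-Nd4 (1217 CPM), mt-Rnr1 (1049.6 CPM) and mt-Rnr2 (859 CPM). This order depends on the length used: over the bases outside copies of 99% identity, mt-Co1 came to 9343 CPM per kilobase, above mt-Atp8, and the 3342 of mt-Nd4 lay above mt-Nd5, mt-Nd6 and mt-Nd2. Over the whole length, within libraries, mt-Cytb exceeded mt-Nd1 and mt-Nd1 exceeded mt-Nd5 in 6 of 6. mt-Atp8 exceeded mt-Co1 in 4 of 6, and mt-Nd5 exceeded mt-Nd6 in 2 of 6, so the order within either pair was not the same in every library. mt-Nd6 lies on the opposite strand and overlaps mt-Nd5 by 14 bases. Whether reads were counted by strand was not given in the sources used here, so mt-Nd6 counts cannot be told apart from those of RNA opposite to it.

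Counts assigned to the nuclear copy of mt-Nd3 came mostly from knockout libraries. Gm28438 (chr1:24612775-24613119) had 146, 184 and 163 counts in knockout libraries, against 4, 0 and 11 counts in wild-type libraries. The groups did not overlap, while those of mt-Nd3 did. The log2 fold change of Gm28438 was 5.06 ± 0.79 (SE), which did not pass in edgeR (adjusted p = 0.251) and passed in DESeq2 (adjusted p = 3.24e-13). Over the other 14 fits the adjusted p lay between 0.101 and 0.847. The ratio of pooled knockout to pooled wild-type counts, each over the TMM-scaled library sizes, was 32.7. Its exact 95% interval, from 19.6 to 58.8, covers counting error only and not the spread between mice. This pseudogene was singled out after its values were seen. The strain origin of its chromosome 1 region and of the mitochondrial DNA in these C57BL6/SV129 mice was not tested.

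Over its 345 matched bases Gm28438 differs from mt-Nd3 by 1 substitution, T3C, counted from 1 at the first base of mt-Nd3 (MT position 9461). Over those bases only this position tells the genes apart. Which base the mitochondrial DNA of these mice carries there was not tested. The first 30 bases of each are shown, with the differing base in capitals (mt-Nd3 at MT:9459-9488, plus strand, and Gm28438 at chr1:24613090-24613119, minus strand).
mt-Nd3: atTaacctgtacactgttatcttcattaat
Gm28438: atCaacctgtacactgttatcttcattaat

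Of the counts on mt-Nd3 and Gm28438 together, the copy held 47.1%, 40% and 46.7% in knockout libraries and 1.43%, 0% and 4.33% in wild-type libraries. The lowest exact 95% bound in a knockout library was 35.5% and the highest in a wild-type library was 7.62%, and the 0 of 336 counts in wild-type replicate 2 allows a share of up to 0.893% by the limit of 3 counts and 1.09% by the exact interval. Summed over the 2 genes, the level was 11.5 ± 3.44 CPM in the knockout and 8.78 ± 1.73 CPM in wild-type tumors (SD, n = 3 each), and the groups overlapped. Counts of the remaining 6 pseudogenes of the block overlapped between genotypes. Gm28437, the copy of mt-Co3, had 355 counts in knockout replicate 1, 8 and 19 in the other knockout libraries, and 6, 10 and 5 in wild-type libraries. The other 5 had at most 29 counts in any library.

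**Figure D3:**
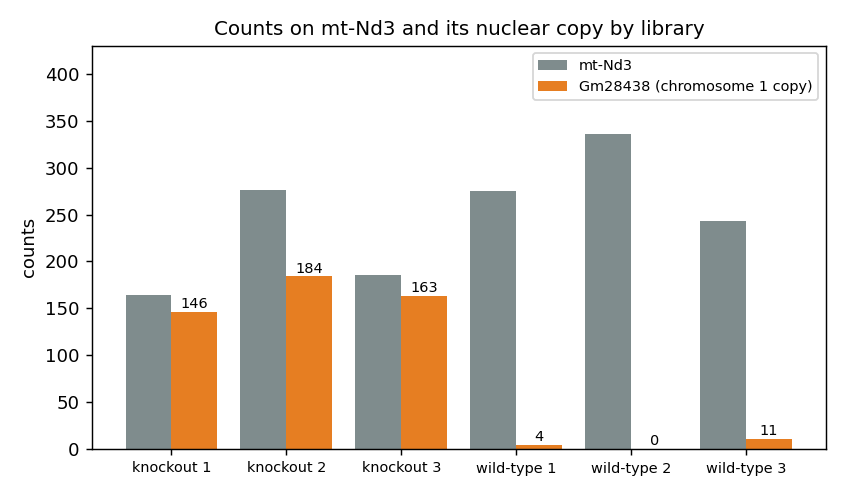
Counts on mt-Nd3 (grey) and on its chromosome 1 copy Gm28438 (orange, with the count above the bar) in each library, not scaled for depth. The copy has 146 to 184 counts in the 3 knockout libraries and 0 to 11 in the 3 wild-type libraries.

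The 2 ribosomal RNAs form the small (mt-Rnr1) and large (mt-Rnr2) subunit of the mitochondrial ribosome. mt-Rnr1 had 772, 903 and 596 CPM in the knockout and 868, 1824 and 1051 CPM in wild-type libraries, and mt-Rnr2 had 981, 1589 and 749 CPM in the knockout and 1051, 2419 and 1364 CPM in wild-type libraries. Wild-type replicate 2 was the highest library for both, and the groups overlapped. As a share of mitochondrial counts the 2 genes took 6.52%, 5.445% and 6.33% in knockout and 6.62%, 10.1% and 7.49% in wild-type libraries, without overlap, though the gap between knockout replicate 1 and wild-type replicate 1 was narrow. The means were 6.10% ± 0.572 in knockout and 8.06% ± 1.78 in wild-type tumors (SD, n = 3 each), and the difference of -1.96 percentage points was -0.96 without wild-type replicate 2. Taken singly, mt-Rnr1 took 2.87%, 1.97% and 2.80% in knockout and 2.996%, 4.32% and 3.26% in wild-type libraries, also without overlap, whereas the groups of mt-Rnr2 overlapped. By this share, groups did not overlap for 5 of the 37 genes, close to the 11.2% of all genes tested by level. The latter covers only genes that passed the count filter. Besides mt-Rnr1 the 5 were mt-Atp6, lower in knockout tumors, and mt-Th, mt-Tl2 and mt-Tt, higher in knockout tumors. mt-Tt had only 15, 30 and 14 counts in knockout and 8, 17 and 9 in wild-type libraries. The ratio of mt-Rnr2 to mt-Rnr1 counts was 1.76 in knockout replicate 2 and between 1.21 and 1.33 in the other 5 libraries.

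Nuclear ribosomal RNA genes took 0.870%, 0.856% and 0.620% of library counts in knockout and 1.02%, 1.70% and 0.923% in wild-type libraries, without overlap and again highest in wild-type replicate 2. Of 13 marker lists for cell types, the summed level of 5 also did not overlap, against 11.2% of single genes tested. It was higher in knockout tumors for Paneth cells (1110 to 2308 CPM in the knockout against 880 to 994 CPM in the wild-type tumors), smooth muscle (823 to 900 CPM in the knockout against 411 to 784 CPM in the wild-type tumors) and endothelium (354 to 485 CPM in the knockout against 260.1 to 330.03 CPM in the wild-type tumors). It was lower for B and plasma cells (1810 to 5581 CPM in the knockout against 6463 to 10424 CPM in the wild-type tumors) and myeloid cells (375 to 691 CPM in the knockout against 1093 to 1269.8 CPM in the wild-type tumors). Abundant members weigh most in such sums, and the direction of single members is not given here. The myeloid list includes the MHC class II presentation genes H2-Aa, H2-Ab1 and Cd74, and the B and plasma cell list the immunoglobulin genes Ighm, Igha and Igkc. In the Paneth list 8 of 9 genes reached a mean of 1 CPM and in the B and plasma cell list 8 of 10, in the smooth muscle, endothelium and myeloid lists all members did, and no member of these 5 lists was at 0 in every library. The part of any of these in the share of mitochondrial ribosomal RNA was not tested.

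Transfer RNA genes were counted very unevenly. Among the 22, 4 genes held 93.1% of the 40198 transfer RNA counts, between 539 and 4189 counts in a library, and none of the other 18 exceeded 96. The 4 are those for serine (codons beginning UC), leucine (codons UUA and UUG), proline and glutamate, shown with the anticodon in capitals. mt-Ts1 (MT:6870-6938), mt-Te (MT:14071-14139) and mt-Tp (MT:15356-15422) are read from the minus strand and mt-Tl1 (MT:2676-2750) from the plus strand.
mt-Ts1: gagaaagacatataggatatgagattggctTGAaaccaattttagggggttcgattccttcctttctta
mt-Te: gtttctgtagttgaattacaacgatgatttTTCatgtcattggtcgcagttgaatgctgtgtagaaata
mt-Tp: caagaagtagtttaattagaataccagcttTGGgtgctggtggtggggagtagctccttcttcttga
mt-Tl1: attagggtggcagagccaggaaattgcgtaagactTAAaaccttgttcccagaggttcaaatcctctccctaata

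mt-Ts1 overlaps the 3′ end of mt-Co1 by 3 bases on the opposite strand and had 2444, 3635 and 2747 counts in knockout and 3081, 4108 and 4189 in wild-type libraries. mt-Tl1, which lies between mt-Rnr2 and mt-Nd1, had 547, 896 and 539 counts in knockout and 571, 924 and 861 in wild-type libraries. Both groups overlap once scaled for depth. The 8 minus-strand transfer RNA genes had 34319 counts and the 14 plus-strand ones 5879, and whether RNA of the opposite strand is included is not known. The genes are 59 to 75 bases long, so all 22 were too short for the 100-base copy search. Among them mt-Ts1, mt-Td, mt-Tk, mt-Tg and mt-Tr lie between genes with copies in the chromosome 1 block. Whether they have copies there was not tested. Mature transfer RNA and uncut precursor cannot be told apart in the counts of transfer RNA genes.

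Wild-type replicate 2 stood apart in 6 transfer RNAs that follow each other on the genome. mt-Tk (lysine) had 0 counts there, against 4 to 12 in each other library. mt-Tg (glycine) had 12 against 42 to 53, and mt-Tr (arginine) 6 against 25 to 48. mt-Th (histidine) had 12 against 29 to 72, mt-Ts2 (the other serine gene) 12 against 29 to 44, and mt-Tl2 (the other leucine gene) 13 against 29 to 51. Together the 6 genes held 0.41 of every 10000 mitochondrial counts in wild-type replicate 2, while the 3 knockout libraries had 2.66, 1.98 and 2.19 and wild-type replicates 1 and 3 had 1.97 and 1.95. For the 12 other low transfer RNAs, wild-type replicate 2 was also the lowest, but close, with 2.25 against 2.34 to 3.27 in the other libraries. The 6 genes were chosen after their values were seen.

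**Figure D4:**
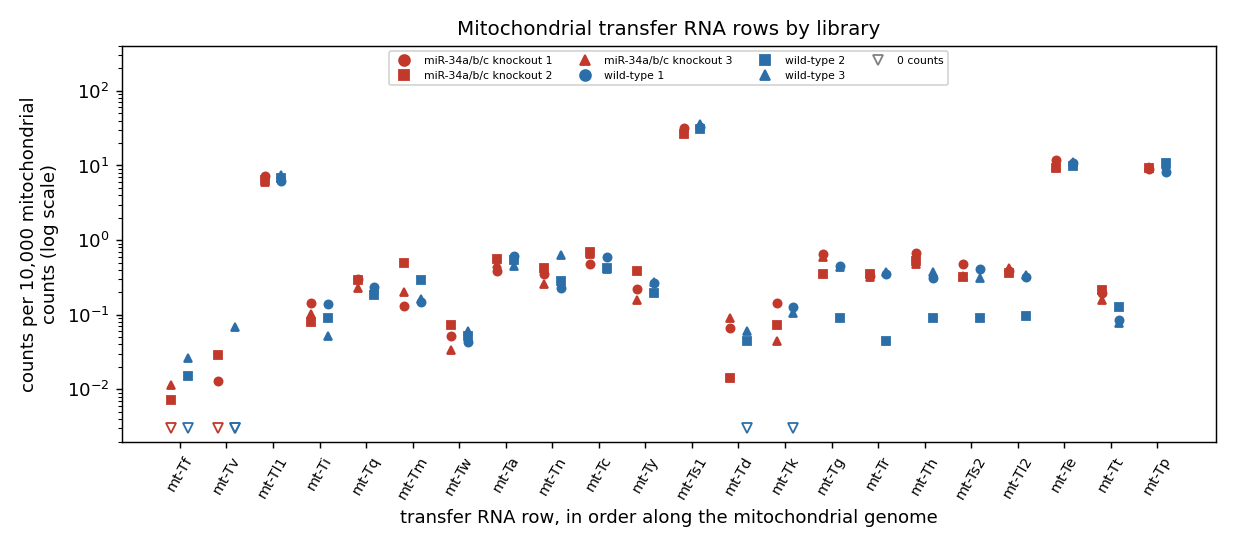
Counts on each of the 22 transfer RNA genes per 10000 mitochondrial counts (log axis), in order along the mitochondrial genome. Each point is 1 mouse (knockout left in red, wild-type right in blue, open triangles for 0 counts). mt-Tl1, mt-Ts1, mt-Te and mt-Tp lie above the rest, and wild-type replicate 2 (blue square) is the lowest library from mt-Tk to mt-Tl2.

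To ask whether loss of the 3 microRNAs went with a change in mitochondrial transcripts, genotypes were compared over all 17254 genes that passed the count filter, by edgeR's quasi-likelihood test with Benjamini-Hochberg adjustment. Of the 37 mitochondrial genes 32 passed the filter, and mt-Nd4l, mt-Tf, mt-Tv, mt-Tw and mt-Td did not. None of the 32 was called at an adjusted p below 0.05 in edgeR, where 0.0927% of all genes tested were (0.0406% higher and 0.0522% lower in knockout tumors). DESeq2 also called none, where 0.638% of all genes were called. None had an unadjusted p below 0.05 in edgeR (5.85% of all genes tested) and 1 had in DESeq2, and none had groups that did not overlap (11.2% of all genes tested, 5.86% higher and 5.34% lower). The gene nearest the threshold was mt-Rnr1, with a log2 fold change of -0.72 ± 0.32 (SE) and an adjusted p of 0.793 in edgeR, and -0.34 without wild-type replicate 2. mt-Rnr2 had -0.54 ± 0.40, and -0.13 without wild-type replicate 2.

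The differences of the messenger RNAs were small beside their errors. The log2 fold change was below 0 in 11 of 12 messenger RNAs tested, from -0.49 ± 0.36 for mt-Atp6 to 0.03 ± 0.48 for mt-Co2, with a median of -0.14. Over all genes tested it was below 0 in 48.9%, with a median of 0.01. mt-Co1 had -0.04 ± 0.37, with a 95% interval from -0.92 to 0.84, and mt-Cytb -0.12 ± 0.36, with an interval from -0.97 to 0.72, and both intervals include 0. The messenger RNAs share precursors and libraries and are not independent. Their common direction rested on single mice: 4 of 12 were below 0 without knockout replicate 3 (median 0.07), and 5 of 12 were without wild-type replicate 2 (median 0.05). Without knockout replicate 2, 12 of 12 were (median -0.49), and 4 of the 32 mitochondrial genes had an unadjusted p below 0.05, none of them called. Without knockout replicate 1, 8 of 12 messenger RNAs were below 0 (median -0.05). Leaving out wild-type replicate 1 put 12 of 12 below 0 (median -0.23). Of the 18 transfer RNAs tested, 6 were below 0 and 12 above, but 13 were below and 5 above without knockout replicate 2, and 3 were below and 15 above without knockout replicate 3. The 12 include mt-Th with 1.06 ± 0.51 (SE). It had 1.83, 2.38 and 1.03 CPM in knockout libraries and 0.901, 0.378 and 1.20 CPM in wild-type libraries.

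**Figure D5:**
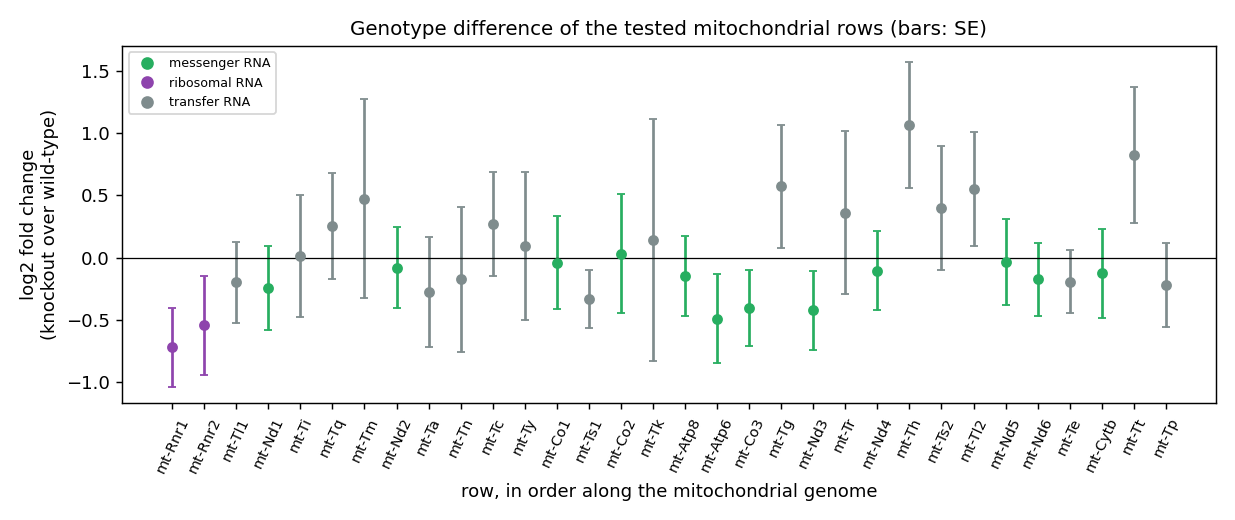
log2 fold change, knockout over wild-type, of the 32 tested mitochondrial genes in order along the genome, with SE as bars (edgeR, n = 3 mice each). The messenger RNAs (green) lie between -0.49 and 0.03, the ribosomal RNAs (purple) at -0.72 and -0.54, and no gene passed the threshold.

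None of the listed nuclear genes that copy, transcribe and process the mitochondrial genome passed the test in edgeR. Tfam, which packs mitochondrial DNA and starts its transcription, had 55.9 ± 3.35 CPM in the knockout and 56.9 ± 2.82 CPM in wild-type tumors (SD, n = 3 each), and the polymerase Polrmt had 28.5 ± 0.787 CPM in the knockout against 30.8 ± 2.13 CPM in the wild-type tumors. Lrpprc, which stabilises mitochondrial messenger RNAs together with Slirp, had 96.4 ± 7.48 CPM in the knockout against 100.01 ± 3.42 CPM in the wild-type tumors, and Slirp had 11.3 ± 1.46 CPM in the knockout against 13.1 ± 1.79 CPM in the wild-type tumors. Elac2, the nuclease that trims the 3′ ends of transfer RNAs, had 34.7 ± 1.93 CPM in the knockout against 33.6 ± 0.821 CPM in the wild-type tumors. Mtpap, the poly(A) polymerase, had 28.8 ± 3.32 CPM in the knockout against 26.7 ± 0.938 CPM in the wild-type tumors, Pnpt1, the degrading ribonuclease, 47.3 ± 2.74 CPM in the knockout against 44.8 ± 4.004 CPM in the wild-type tumors, and Tfb2m 12.9 ± 0.915 CPM in the knockout against 14.0 ± 0.493 CPM in the wild-type tumors. The coactivator Ppargc1a, which drives mitochondrial biogenesis, varied more, with 31.2 ± 16.6 CPM in the knockout against 27.3 ± 3.96 CPM in the wild-type tumors.

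By list, 0 of 19 genes of DNA replication, 0 of 10 of transcription, 0 of 41 of RNA processing, 0 of 12 regulators of biogenesis and 0 of 52 of the mitochondrial ribosome passed in either direction (edgeR). An unadjusted p below 0.05 in edgeR was found for 4 of the 133 different genes, against 5.85% of all genes tested. Of the replication genes 6 were higher and 13 lower in knockout tumors (median log2 fold change -0.06), of the transcription genes 2 and 8 (-0.15), and of the processing genes 17 and 24 (-0.03). Of the regulators 9 were higher and 3 lower (0.07), and of the ribosome genes 8 and 44 (-0.12). Leaving out single mice moved the ribosome median between -0.21 (without knockout replicate 1) and -0.08 (without knockout replicate 2 or 3), and the replication median between -0.14 (without knockout replicate 1) and 0.00 (wild-type replicate 2 left out). The processing median changed sign, to 0.02, without knockout replicate 2 or wild-type replicate 2. Groups did not overlap for 13 of the 133 different genes, 4 of them higher and 9 lower in knockout tumors, a share close to the 11.2% of all genes tested. The genes named next were picked because they had the 2 smallest p of their list. The gene of these lists nearest the threshold was Mrpl3, a protein of the large mitochondrial ribosomal subunit. It averaged 39.9 ± 3.32 CPM in knockout tumors against 52.6 ± 5.27 CPM in wild-type ones, with a log2 fold change of -0.40 ± 0.12 (SE) and an adjusted p of 0.793 in edgeR. Mrpl9, of the same subunit, had 58.3 ± 7.07 CPM in the knockout against 74.3 ± 9.65 CPM in the wild-type tumors. Mterf1b, a gene of the transcription termination factor family, had 0.478 ± 0.208 CPM in the knockout against 0.958 ± 0.221 CPM in the wild-type tumors, and its closely related paralog Mterf1a 1.92 ± 0.171 CPM in the knockout against 2.98 ± 0.981 CPM in the wild-type tumors, and reads that fit both may have been split between them. Rrm2b, a p53-induced subunit of ribonucleotide reductase that supplies nucleotides for mitochondrial DNA, had 14.9 ± 2.41 CPM in the knockout against 10.8 ± 1.57 CPM in the wild-type tumors, and Slc25a4, an ADP/ATP carrier, 141 ± 42.3 CPM in the knockout against 99.9 ± 17.4 CPM in the wild-type tumors. Hsd17b10, part of the enzyme that cuts the 5′ ends of transfer RNAs, had 52.1 ± 3.68 CPM in the knockout against 61.5 ± 8.12 CPM in the wild-type tumors, and the methyltransferase Trmt61b 5.34 ± 0.837 CPM in the knockout against 4.18 ± 0.256 CPM in the wild-type tumors. Among the regulators, Esrrg had 2.95 ± 0.333 CPM in the knockout against 1.85 ± 0.670 CPM in the wild-type tumors and Pprc1 61.4 ± 12.1 CPM in the knockout against 49.9 ± 3.999 CPM in the wild-type tumors.

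Of the nuclear genes for the other subunits of oxidative phosphorylation, 68 of 68 had a log2 fold change below 0, with a median of -0.24. That median was -0.39 without knockout replicate 2, -0.11 without knockout replicate 3, and -0.14 when wild-type replicate 2 was left out. Over all genes tested 48.9% were below 0, and the 68 genes share libraries and are not independent. Groups did not overlap for 5 of the 68, against 11.2% of all genes tested. None of the 68 passed in edgeR. Against 5.85% of all genes tested, 1 of the 68 had an unadjusted p below 0.05. That was Ndufs4, a complex I subunit, which averaged 68.04 ± 6.65 CPM in knockout tumors against 83.4 ± 4.80 CPM in wild-type ones, a log2 fold change of -0.29 ± 0.12 (SE) with an adjusted p of 0.793 in edgeR. Ndufc2, also of complex I, had 77.3 ± 7.79 CPM in the knockout against 95.8 ± 10.97 CPM in the wild-type tumors. Of 21 genes of mitochondrial mass and import, 10 were above and 11 below 0 with a median of -0.02, none passed in edgeR and none had an unadjusted p below 0.05. Their smallest p were those of Timm23, a channel of the inner membrane (43.5 ± 3.78 CPM in the knockout against 47.8 ± 3.32 CPM in the wild-type tumors), and Mdh2, malate dehydrogenase (1021 ± 495 CPM in the knockout against 1311 ± 297 CPM in the wild-type tumors).

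The labelled tissue was checked with marker lists. All 12 epithelial and all 12 Wnt-driven adenoma genes had a mean of at least 1 CPM, with sums from 12727 to 18683 and from 973 to 2387.5 CPM. Summed levels of skeletal and cardiac muscle markers, from tissues rich in mitochondria, were 9.15 to 16.3 CPM, with 2 of 6 at a mean of 1 CPM or more. Enterocyte genes summed to 9083, 22024 and 12143 CPM in the knockout and 12807, 12145 and 19384 CPM in wild-type libraries. The knockout library with the largest enterocyte sum, replicate 2, also had the largest mitochondrial share. In wild-type libraries replicate 2 had the smallest enterocyte sum and the largest mitochondrial share. A link between enterocyte sum and mitochondrial share was not tested.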

How the data were processed

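Total RNA of adenomas from 6 mice went into standard Illumina libraries, per the labels' protocols. The deposited files, 1 for each library, list integer counts by Ensembl gene. The submitters' processing notes name mm10, TopHat2 2.1.0 and HTSeq 0.6.1. Strand setting, read length, RNA selection and the handling of multiply aligned reads were not given in the sources used here. Intervals of shares and of the pooled ratio, and the limit of 3 counts behind a count of 0, cover counting error only. The p-values, SE and intervals of log2 fold changes rest on the spread between mice, estimated in part from all genes tested.

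GENCODE M21 gave symbols (45143 of 46078 identifiers), strands and sequences. Genotype came from the sample titles. After filterByExpr and TMM scaling, genotypes were compared with edgeR 4.0.16 (robust quasi-likelihood F-test) in R 4.3.3, with Benjamini-Hochberg adjustment at 0.05. The fit was tested on simulated data. SE is the log2 fold change over the square root of F. Nuclear copies were planned against a genome, which was not used here, and were sought among transcripts with BLAST 2.17.0 (95% identity, alternatives 90% and 99%). Shares have no test.

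Members and lists were chosen with earlier results of these data known. Every messenger and ribosomal RNA was named, transfer RNAs by highest counts, and nuclear genes by name or as the 2 smallest p of a list. Alternatives were other scalings, filters and tools (DESeq2 1.42.0, limma-voom 3.58.1), a replicate block, each mouse left out, and other denominators, gene subsets and identities. Class shares without copied genes were added after seeing the data.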

Additional observations from a re-analysis of the deposited data

How the results depend on the processing

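No mitochondrial gene was called under any of the scalings, filters, tools or left-out mice tried, with 0 to 2 at an unadjusted p below 0.05 in the fits on all 6 libraries, 4 without knockout replicate 2, and 0 or 1 without any other mouse. Over all genes, DESeq2 called 110 against 16 in edgeR, and leaving out single mice gave 9 to 41. Of the knockout mice, removing replicates 1, 2 or 3 left 9, 41 or 10 calls, and removing wild-type replicate 3 left 29. With the replicate number as a block, 14 genes were called, none of them mitochondrial, and the log2 ratio of the mitochondrial share was -0.13. Same-numbered libraries correlated at 0.218, 0.273 and 0.081, and differently numbered ones between -0.297 and 0.179. Knockout replicates 1 and 2 correlated best with the wild-type library of their number, but knockout replicate 3 with wild-type replicate 1. Whether the numbers mark pairs is thus not settled, and the main fit did not take them as pairs. Leaving out single mice moved the log2 ratio of the mitochondrial share between -0.37 and 0.08, and the difference in the ribosomal RNA share between -2.68 and -0.96 percentage points. Without genes over 50% covered by a copy at 95% identity, a choice made after seeing the data, that difference was -3.03. The genes left out include mt-Co1, the most abundant, so this share was taken of a much smaller total. Its percentage points therefore do not compare in size with those above. Genes over 50% covered numbered 8 at 95% identity, 6 at 99% and 10 at 90%. Of 489 single gene values under alternatives, 465 moved by less than 1 SE, 23 by more, and 1 (Gm28438 in DESeq2) passed the threshold. The 23 all came from left-out mice. Those of mt-Rnr1 and mt-Rnr2 moved without wild-type replicate 2, and all the others, most messenger RNAs among them, without knockout replicate 2. With 3 mice a group, the spread between mice mostly sets the limits. Counting error also weighs where counts were low, as for mt-Nd4l, the rarely counted transfer RNAs, mt-Co2 in wild-type libraries and most copies of the block.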
